A study of Rattus norvegicus with 12 samples.

Results

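The matrix metalloproteinase (MMP), ADAMTS and TIMP genes were taken as every row of the count table whose gene name is Mmp, Adamts or Timp followed by its family number, with 1 further letter allowed after an Mmp number and Timp limited to its 4 numbered genes. The rule used names and no measured value. It found 46 of 30562 rows, made up of 23 Mmp, 19 Adamts and 4 Timp genes. After a filter on low counts (edgeR's filterByExpr) 42 of the 46 were tested among 15712 genes: 19 Mmp, all 19 Adamts and all 4 Timp genes. Mmp1, Mmp1b, Mmp20 and Mmp21 did not pass the filter and held at most 3 counts in any library. Mmp21 had 0 counts in all 12 libraries, and a count of 0 allows up to 3 counts in each.

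MMPs are zinc-dependent endopeptidases, secreted or anchored in the membrane, that are made as inactive proenzymes and together can cut collagens, elastin, laminin, fibronectin, proteoglycans and many cytokines. ADAMTS enzymes are secreted relatives with thrombospondin repeats; some cut the large chondroitin sulphate proteoglycans, some trim procollagens, and ADAMTS13 cuts von Willebrand factor. TIMPs occupy the active site of these enzymes, and TIMP3 also inhibits several ADAMTS proteins. In cut peripheral nerve, MMPs are known for opening the blood-nerve barrier, for the entry of leukocytes and for the breakdown of myelin, while proteoglycan-cutting enzymes remove matrix that hinders axon growth.

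The libraries are stranded poly(A) mRNA-seq of rat (Rattus norvegicus) sciatic nerve stumps, 3 in each of 4 groups. VP4:2 stumps had a truncated-cone conduit of the 4:2 gradient loaded with verteporfin (spelled vertaporfin in the labels), a porphyrin used to block the binding of YAP to TEAD transcription factors. CC4:2 stumps had the same gradient without the drug, CC4:4 stumps had the 4:4 gradient, and Control stumps are labelled only as control. The study asks what the conduits change in the stump with regard to pain, and whether YAP takes part. No source used here gives what the control nerves received, the time after surgery, the strain, age and sex, or whether stumps came from separate rats. The p-values therefore speak only of variation among the stumps sequenced, and part or all of that may be technical. In every group replicates 1 and 2 were sequenced on a NovaSeq X Plus and replicate 3 on a DNBSEQ-T7.

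Library totals were 13763106 to 18632301 counts, with 17561 to 17984 genes detected. The nerve label was checked against 8 myelin genes, whose summed level was 13150 to 19720 CPM (counts scaled to library size) in VP4:2, 14480 to 37690 in CC4:2, 2866 to 3595 in CC4:4 and 539 to 4853 in Control stumps, with none at 0 in any group. Control replicate 1 stood apart: it held the lowest myelin sum, and on the second principal component of all genes, with 11.4% of the variance, it lay at 63.5, against -28.5 and -44.4 for Control replicates 2 and 3. It was the highest Control stump in 30 of the 42 tested members, at least 2-fold above both others in 16. The 9 fibroblast markers summed to 55710 CPM in Control replicate 1, against 14090 and 12840 in Control replicates 2 and 3. Most of the first sum was Col1a1 (29430 CPM), Col3a1 (20470 CPM) and Lum (3579 CPM). Dcn and Clec3b were also highest in Control replicate 1. Pdgfra, Dpt and Pi16 lay within the range of Control replicates 2 and 3. Fbln1 was lower, at 67.7 CPM against 203 and 139. The 5 skeletal muscle markers summed to 6.64 CPM in Control replicate 1, against 633 and 6264, and to 925, 9723 and 166 CPM in CC4:2 replicates 1 to 3. Their part in the members' values was not tested. The members took up 0.425% to 0.526% of counts in VP4:2, 0.317% to 0.5% in CC4:2 and 0.427% to 0.601% in CC4:4 stumps, and 0.813%, 0.253% and 0.266% in Control replicates 1 to 3. Counts and several member changes are therefore also given without Control replicate 1. Without that stump, 9 members changed sign in CC4:2 against Control stumps, 6 in CC4:4 against Control stumps and 5 in VP4:2 against Control stumps. Other values against Control stumps include Control replicate 1 and can shift without it.

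The RefSeq gene table for the rat assembly GRCr8 matched all 46 members by symbol, and places 10 of them next to each other on chromosome 8, with 2 pseudogenes and no other annotated gene between: Mmp13, Mmp12, Mmp1b, Mmp3, Mmp1, Mmp10, Mmp8, Mmp27, Mmp20 and Mmp7. The count table names no build, so the gene order, promoter windows and motif letters given here describe the GRCr8 reference, which may not be the annotation that was counted. Promoter windows of 300 bases, from 250 before to 50 after the annotated start, were held for 35 members, with the first window kept for each gene. They were searched on both strands for TGANTCA, the binding motif of AP-1, a Fos and Jun dimer that drives several MMP genes, and for the TEAD motif CATTCC. The 5 windows printed belong to the members with the largest changes in CC4:2 against Control stumps among those with a window. They are RefSeq sequence of build GRCr8, written 5′ to 3′ on the strand of the gene, with any AP-1 match in capitals.
Mmp13, chr8:12782579-12782878 (+): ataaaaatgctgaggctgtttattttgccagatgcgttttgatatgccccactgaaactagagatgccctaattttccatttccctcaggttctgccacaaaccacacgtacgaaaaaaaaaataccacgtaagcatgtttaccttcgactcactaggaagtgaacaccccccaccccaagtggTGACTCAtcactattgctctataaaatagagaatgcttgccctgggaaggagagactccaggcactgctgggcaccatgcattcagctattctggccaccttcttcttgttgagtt
Mmp10, chr8:12974457-12974756 (+): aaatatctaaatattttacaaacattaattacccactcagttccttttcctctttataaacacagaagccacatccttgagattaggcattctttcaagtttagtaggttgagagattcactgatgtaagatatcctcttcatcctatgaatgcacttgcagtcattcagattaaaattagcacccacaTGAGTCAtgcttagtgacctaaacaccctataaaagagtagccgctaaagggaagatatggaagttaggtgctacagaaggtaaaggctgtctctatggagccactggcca
Mmp8, chr8:13008640-13008939 (+): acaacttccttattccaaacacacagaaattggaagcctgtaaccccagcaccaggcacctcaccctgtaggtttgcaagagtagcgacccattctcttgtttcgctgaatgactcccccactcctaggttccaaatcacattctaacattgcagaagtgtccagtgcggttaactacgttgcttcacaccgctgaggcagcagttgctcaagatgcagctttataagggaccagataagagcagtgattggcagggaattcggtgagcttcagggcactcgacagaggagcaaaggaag
Mmp3, chr8:12925031-12925330 (+): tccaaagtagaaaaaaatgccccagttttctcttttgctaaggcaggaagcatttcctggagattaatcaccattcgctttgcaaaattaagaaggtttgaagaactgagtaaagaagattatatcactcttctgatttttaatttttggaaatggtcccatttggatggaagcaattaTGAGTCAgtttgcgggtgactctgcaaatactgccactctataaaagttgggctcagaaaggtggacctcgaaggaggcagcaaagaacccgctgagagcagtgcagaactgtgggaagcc
Adamts20, chr7:127407247-127407546 (-): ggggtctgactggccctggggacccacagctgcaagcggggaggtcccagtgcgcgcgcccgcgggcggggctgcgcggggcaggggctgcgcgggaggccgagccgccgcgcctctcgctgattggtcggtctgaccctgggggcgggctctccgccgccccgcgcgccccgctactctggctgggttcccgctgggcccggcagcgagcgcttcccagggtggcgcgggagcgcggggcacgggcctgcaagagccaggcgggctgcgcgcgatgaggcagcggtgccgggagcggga

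The AP-1 letters began 66 bases before the annotated start in Mmp13, 61 in Mmp10 and 71 in Mmp3, and were not found in the windows of Mmp8 or Adamts20. Another 4 genes of the chromosome 8 row held them, shown here with 10 bases on either side because their place is so similar.
Mmp12, 87 bases before the start, chr8:12866555-12866581 (+): acatcaacagTGAGTCAtattgaggat
Mmp7, 80 bases before the start, chr8:13132953-13132979 (+): agcatgagaaTGAGTCAccgattccca
Mmp1, 84 bases before the start, chr8:12943359-12943385 (+): ttgtcaaccaTGAGTCAcgtagcctct
Mmp20, 96 bases before the start, chr8:13074173-13074199 (+): atttgagacaTGAATCAtcacttgcag

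Mmp1 had a further match 242 bases before its start, which read TGAATCA, as did the only match of Mmp20. The other member matches read TGAGTCA or TGACTCA. All TGANTCA matches count in the shares given here. In all, 7 of the 10 members in the row held the AP-1 letters, and Mmp1b, Mmp8 and Mmp27 did not. Of the 25 member windows elsewhere in the genome, 0 held them. All members without a window lie outside the row and could not be searched. These were Mmp2, Mmp9, Mmp14, Mmp16, Mmp17, Mmp19, Adamts5, Adamts8, Adamts15, Adamts16 and Adamts19. Over all members with a window the share was 20% (7 of 35), against 7.33% of the windows of 27457 genes. TEAD letters were in the windows of Mmp27, Timp1 and Timp4, which is 8.57% of the members' windows, against 13.9% of all windows. These matches describe letters in the reference and are not binding sites measured here.

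In CC4:2 against Control stumps, both tested collagenases (Mmp13 and Mmp8), the stromelysins Mmp3 and Mmp10, the gelatinase Mmp9 and the macrophage elastase Mmp12 fell, Mmp13 to a mean of 0.395 ± 0.163 CPM in CC4:2 stumps, against 560.0 ± 653 CPM in Control stumps (SD, n = 3 each). The membrane-type Mmp15, Mmp27, Mmp28, the proteoglycanase Adamts20 and the inhibitors Timp3 and Timp4 rose, and the inhibitor Timp1 fell. Of the 42 tested members 12 were higher and 11 lower at an edgeR adjusted p under 0.05. That is 54.8% of the members, where 43.5% of all 15712 tested genes passed, 20.3% higher and 23.2% lower. The members' median log2 fold change was -0.14, beside -0.04 over all genes tested. Without Control replicate 1 it was 0.55, beside -0.02 over all genes, with 27 members called, 64.3% of the 42, where 45.3% of all genes passed. By family, 4 Mmp genes rose and 7 fell of 19, 6 Adamts genes rose and 3 fell of 19, and 2 Timp genes rose and 1 fell of 4.

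**Figure D1:**
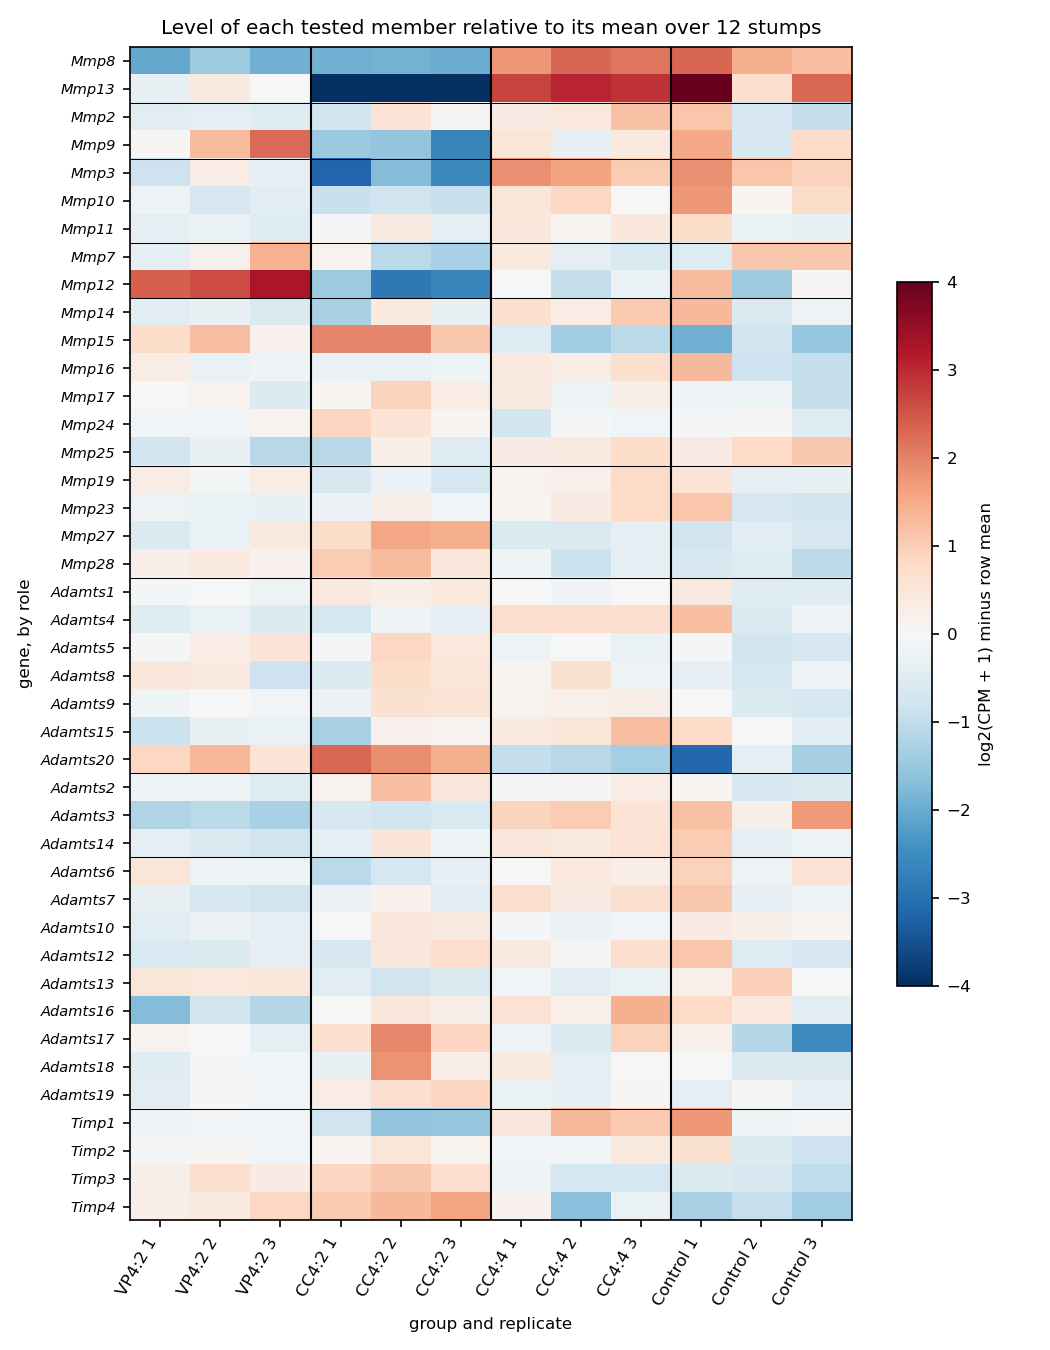
Level of the 42 tested members in the 12 stumps, as log2(CPM + 1) minus the mean of the row, with genes in rows ordered by role, stumps in columns by group, and colours that stop at 4 in either direction. The dark blue block of Mmp13 in the CC4:2 stumps, the dark red row of Mmp12 in the VP4:2 stumps, and the redder column of Control replicate 1 are the plainest features.

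Collagenases cut fibrillar collagen. Mmp13, collagenase 3, was at 45.9, 73.5 and 55.99 CPM in VP4:2, 0.212, 0.451 and 0.522 in CC4:2, 378, 477 and 428 in CC4:4 and 1306, 91.04 and 283 in Control stumps. All CC4:2 stumps lay below 1 CPM and all VP4:2 stumps lay between the CC4:2 and the other groups, while the Control stumps spanned more than the CC4:4 stumps did. The log2 fold change of Mmp13 in CC4:2 against Control stumps was -10.44 ± 1.07 (SE, edgeR adjusted p = 8.4e-05), and -8.86 without Control replicate 1. Changes of the other genes are likewise log2 fold changes with their standard errors. Mmp8, the collagenase of neutrophil granules, was at 0.0548, 0.644 and 0.162 CPM in VP4:2, 0.159, 0.169 and 0.104 in CC4:2, 13.4, 21.1 and 18.1 in CC4:4 and 20.8, 10.8 and 9.13 in Control stumps. Both 4:2 groups were below 1 CPM in each stump and both other groups were at 9.13 CPM or more, so neither 4:2 group overlapped with CC4:4 or Control stumps. Mmp8 changed by -6.50 ± 0.66 (SE, edgeR adjusted p = 7.9e-05) in CC4:2 against Control stumps.

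A list of 10 genes that mark neutrophils was summed beside Mmp8. Their sum was 18.5 to 23.1 CPM in VP4:2, 15.6 to 23.4 in CC4:2, 265 to 699.8 in CC4:4 and 264.5 to 526 in Control stumps. Of the 8 tested, 7 were lower and 1, Mpo, was higher in CC4:2 against Control stumps. Ngp was at 0 in all VP4:2 stumps and Prok2 at 0 in all CC4:2 stumps. The part of neutrophil RNA in the fall of Mmp8 was not tested, and in these bulk libraries fewer cells of a type and less RNA per cell cannot be told apart.

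Stromelysins cut proteoglycans and other matrix proteins and activate other MMPs. Mmp3, stromelysin 1, was at 51.9, 114 and 74.4 CPM in VP4:2, 9.48, 27.01 and 14.9 in CC4:2, 335, 289 and 190.4 in CC4:4 and 337, 201 and 177 in Control stumps. The CC4:2 stumps were the lowest, the VP4:2 stumps next, and neither overlapped with the other 2 groups. Mmp3 changed by -3.80 ± 0.46 (SE, edgeR adjusted p = 0.00019) in CC4:2 against Control stumps. Mmp10, stromelysin 2, was at 0.603, 0.161 and 0.379 CPM in VP4:2, 0, 0.0564 and 0 in CC4:2, 1.58, 2.30 and 0.889 in CC4:4 and 5.12, 0.937 and 2.10 in Control stumps. It had 1 count in total in CC4:2 stumps, against 129 in Control stumps. Its level in the Control stumps was 167-fold that in CC4:2 stumps, with a 95% interval of 29.5 to 6660 that covers counting error only, and edgeR's adjusted p was 0.00065. Reads of Mmp3 and Mmp10 were partly shared: in 9 libraries both had counts that were not whole numbers while their sum was whole within 1e-06, so the division between these neighbours is uncertain. Mmp11, stromelysin 3, was at 6.77 ± 0.659 CPM in VP4:2, 9.14 ± 2.54 in CC4:2, 11.7 ± 1.68 in CC4:4 and 10.1 ± 4.98 in Control stumps (mean and SD, n = 3 each) and was not called.

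Gelatinases cut denatured collagen and the type IV collagen of basement membranes. Mmp9, known for opening the blood-nerve barrier, was at 79.2, 187 and 376 CPM in VP4:2, 27.1, 25.04 and 11.2 in CC4:2, 108, 62.8 and 101.1 in CC4:4 and 221, 49.1 and 129.7 in Control stumps. CC4:2 stumps were lowest with no overlap, and in the VP4:2 stumps the level spread more widely than in CC4:4 stumps. Mmp9 changed by -2.66 ± 0.64 (SE, edgeR adjusted p = 0.0072) in CC4:2 against Control stumps. Mmp2, the gelatinase made by resting stromal cells, was at 719 ± 32.4 CPM in VP4:2, 998 ± 427 in CC4:2, 1568 ± 532 in CC4:4 and 1064 ± 889 in Control stumps (mean and SD, n = 3 each). It was not called in any comparison, and its fold change of -0.09 in CC4:2 against Control stumps was 0.86 without Control replicate 1. Mmp14, the membrane enzyme that activates pro-MMP2, changed by -0.67 ± 0.50 (SE, edgeR adjusted p = 0.31), or 0.14 without Control replicate 1. Timp2, the inhibitor that bridges the pair, changed by 0.36 ± 0.33 (SE, edgeR adjusted p = 0.4), or 0.93 without Control replicate 1, when edgeR's adjusted p was 0.0049.

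Mmp12 is the elastase of macrophages. It was at 855, 994 and 1549 CPM in VP4:2, 58.8, 21.2 and 25.5 in CC4:2, 158, 83.2 and 133 in CC4:4 and 391, 60.04 and 167 in Control stumps. The VP4:2 stumps were the highest and the CC4:2 stumps the lowest, and each was clear of the other 3 groups, although the highest CC4:2 stump, at 58.8 CPM, was close to the lowest Control stump, at 60.04 CPM. Mmp12 changed by -2.55 ± 0.63 (SE, edgeR adjusted p = 0.008) in CC4:2 against Control stumps, with a range of -3.14 to -1.70 when 1 library was left out. Mmp7, matrilysin, was at 0.987, 1.88 and 5.74 CPM in VP4:2, 1.85, 0.226 and 0.0522 in CC4:2, 2.35, 0.949 and 0.684 in CC4:4 and 0.787, 4.37 and 4.36 in Control stumps, with wide overlap, and was not called.

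Macrophage genes moved with Mmp12 and Mmp9. The 12 macrophage markers summed to 6147 to 9373 CPM in VP4:2, 1976 to 2347 in CC4:2, 6451 to 7673 in CC4:4 and 7530 to 13280 in Control stumps; 8 of 11 tested were lower in CC4:2 against Control stumps, and Marco was at 0 in all stumps of the 3 conduit groups. The 6 markers of osteoclasts or multinucleated giant cells summed to 796 to 1222 CPM in VP4:2, 204.5 to 219.5 in CC4:2, 427 to 548.5 in CC4:4 and 201.5 to 895 in Control stumps, with 4 of 5 tested lower in CC4:2 against Control stumps and none at 0 in any group. Lymphocyte markers were lower too: 7 of 7 tested T and NK cell markers, which summed to 60.3 to 72.3 CPM in VP4:2, 9.85 to 36.5 in CC4:2, 166 to 275 in CC4:4 and 210.3 to 284 in Control stumps, and 6 of 6 B and plasma cell markers, which summed to 324 to 1180 CPM in VP4:2, 12.3 to 189 in CC4:2, 2501 to 5618 in CC4:4 and 758 to 6934 in Control stumps, with none of either tested list at 0 in any group. The part of these cells in the fall of Mmp12 and Mmp9 was not tested.

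Among the membrane-type MMPs, Mmp15 (MT2-MMP) rose most. It was at 118, 164 and 79.2 CPM in VP4:2, 275, 275 and 149 in CC4:2, 48.9, 26.1 and 32.5 in CC4:4 and 17.9, 40.5 and 23.9 in Control stumps. Every stump of both 4:2 groups was above every CC4:4 and Control stump. Mmp15 changed by 3.09 ± 0.41 (SE, edgeR adjusted p = 3e-04) in CC4:2 against Control stumps. Mmp17, held in the membrane by a lipid anchor, was at 8.39, 9.18 and 5.30 CPM in VP4:2, 8.68, 16.6 and 10.5 in CC4:2, 10.97, 7.05 and 9.85 in CC4:4 and 7.25, 7.11 and 3.80 in Control stumps, and changed by 0.97 ± 0.34 (SE, edgeR adjusted p = 0.037). Mmp24 was at 4.71, 4.67 and 5.68 CPM in VP4:2, 10.2, 7.89 and 5.48 in CC4:2, 2.70, 4.81 and 4.65 in CC4:4 and 4.95, 5.31 and 3.31 in Control stumps, apart from Control stumps in CC4:2 but not called against them. Mmp25, a lipid-anchored enzyme known from leukocytes, was at 4.28, 6.34 and 3.19 CPM in VP4:2, 3.18, 9.59 and 5.27 in CC4:2, 10.3, 10.5 and 14.2 in CC4:4 and 10.2, 14.8 and 17.9 in Control stumps. It fell in CC4:2 against Control stumps, with a change of -1.25 ± 0.39 (SE, edgeR adjusted p = 0.025), while Mmp16 at 6.33 ± 1.60 CPM in VP4:2, 5.41 ± 0.295 in CC4:2, 9.29 ± 1.18 in CC4:4 and 7.84 ± 8.22 in Control stumps (mean and SD, n = 3 each) was not called. Mmp16 was at 17.3 CPM in Control replicate 1 and at 2.91 to 3.28 CPM in the other Control stumps; its change of -0.55 ± 0.56 in CC4:2 against Control stumps was 0.81 without that replicate, when edgeR's adjusted p was 0.021.

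The remaining MMPs have narrower or less settled roles. Mmp27 lies in the chromosome 8 row, beside Mmp8. It was at 0.658, 1.07 and 2.27 CPM in VP4:2, 3.12, 6.32 and 5.85 in CC4:2, 0.704, 0.678 and 0.889 in CC4:4 and 0.506, 0.859 and 0.565 in Control stumps. CC4:2 stumps were the highest with no overlap, the other direction from its called neighbours in the row. Mmp27 changed by 2.98 ± 0.49 (SE, edgeR adjusted p = 0.00093). Mmp28, epilysin, was at 17.98, 19.8 and 16.9 CPM in VP4:2, 30.9, 37.2 and 20.5 in CC4:2, 13.1, 7.66 and 10.9 in CC4:4 and 9.22, 10.3 and 6.70 in Control stumps. CC4:2 stumps were again highest and VP4:2 stumps next, without overlap between them or with CC4:4 and Control stumps, and the change was 1.75 ± 0.26 (SE, edgeR adjusted p = 0.00053). Mmp19 was at 81.2, 61.98 and 80.4 CPM in VP4:2, 42.1, 55.5 and 40.6 in CC4:2, 73.05, 75.2 and 112 in CC4:4 and 95.6, 51.9 and 52.98 in Control stumps and Mmp23 at 34.1 ± 0.992 CPM in VP4:2, 40.1 ± 6.96 in CC4:2, 55.9 ± 14.4 in CC4:4 and 46.1 ± 37.7 in Control stumps (mean and SD, n = 3 each); neither was called against Control stumps. Without Control replicate 1 the change of Mmp23 in CC4:2 against Control stumps was 0.72 with an edgeR adjusted p of 0.017, where it was -0.21 ± 0.43 with all stumps.

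Schwann cell and myelin genes moved with Mmp15 and Mmp28. All 8 myelin markers and 7 of 8 pan-Schwann markers were higher in CC4:2 against Control stumps. The pan-Schwann sum was 1115 to 1659 CPM in VP4:2, 1221 to 2811 in CC4:2, 243 to 407 in CC4:4 and 61.9 to 545 in Control stumps, with none at 0. Perineurial markers, 3 higher and 1 lower of 4 tested, summed to 1460 to 2028 CPM in VP4:2, 3739 to 4269 in CC4:2, 432 to 665 in CC4:4 and 327.5 to 804.5 in Control stumps, with Lypd2 at 0 throughout. All 6 adipocyte markers were also higher, with sums of 1111 to 2521 CPM in VP4:2, 871 to 2457 in CC4:2, 300.0 to 1361 in CC4:4 and 209 to 396 in Control stumps, and none at 0. Their part in the changes of these MMPs was not tested.

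**Figure D2:**
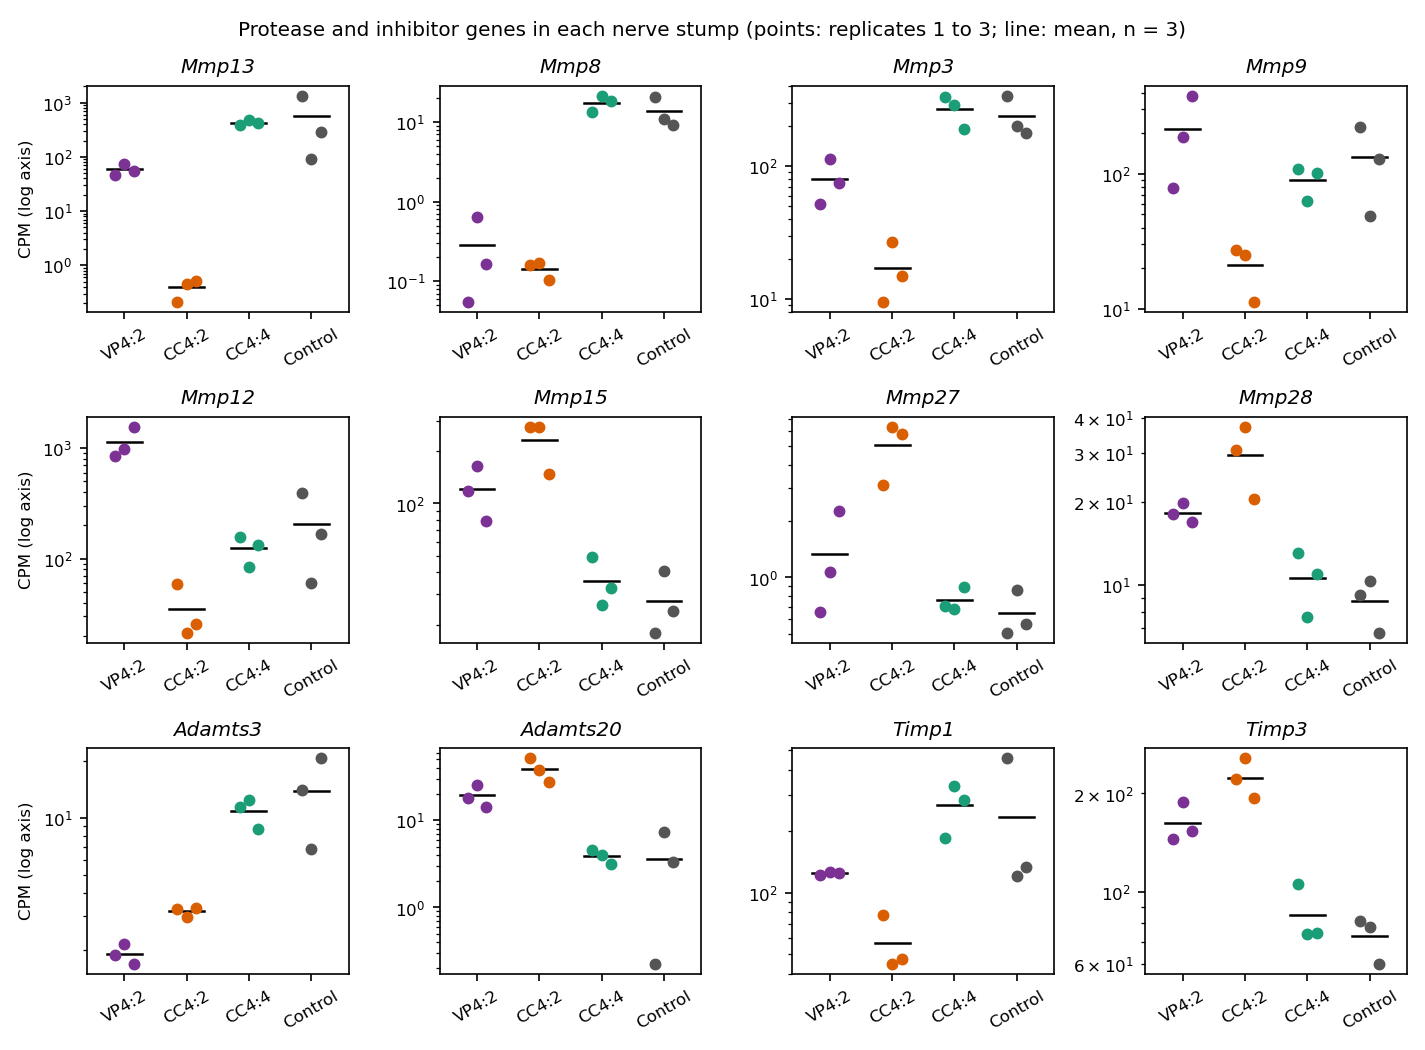
CPM of 12 members on log axes in each stump, with groups along the x axis, points for replicates 1 to 3 and a line for the mean (n = 3). Mmp13, Mmp3, Mmp9, Mmp12 and Timp1 are lowest in CC4:2 stumps, Mmp8 is low in both 4:2 groups, and Mmp15, Mmp27, Mmp28, Adamts20 and Timp3 are highest in CC4:2 stumps.

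Of the 7 ADAMTS genes that cut proteoglycans, 3 rose in CC4:2 against Control stumps and 0 fell. That is 42.9%, close to the 43.5% of all tested genes called in either direction. Adamts20, a versican-cutting enzyme, was at 18.1, 25.7 and 14.4 CPM in VP4:2, 51.5, 38.3 and 27.8 in CC4:2, 4.52, 3.998 and 3.15 in CC4:4 and 0.225, 7.34 and 3.31 in Control stumps. CC4:2 stumps were the highest and VP4:2 stumps next, with Control replicate 1 at the bottom and no overlap of CC4:2 with any other group. Adamts20 changed by 3.46 ± 0.74 (SE, edgeR adjusted p = 0.004), and 2.87 without Control replicate 1. Adamts5, an aggrecanase, was at 57.8, 74.3 and 87.7 CPM in VP4:2, 57.8, 108 and 81.97 in CC4:2, 52.05, 60.6 and 50.8 in CC4:4 and 58.6, 36.1 and 37.6 in Control stumps, where the lowest CC4:2 stump was just under the highest Control stump. Adamts9 was at 24.99, 28.9 and 26.2 CPM in VP4:2, 24.04, 43.7 and 42.5 in CC4:2, 31.9, 32.7 and 33.99 in CC4:4 and 28.9, 19.2 and 16.96 in Control stumps, with the same kind of overlap. The changes were 0.91 ± 0.26 (SE, edgeR adjusted p = 0.015) for Adamts5 and 0.76 ± 0.24 (SE, edgeR adjusted p = 0.026) for Adamts9. Adamts4, the other main aggrecanase, was at 19.9, 23.1 and 18.8 CPM in VP4:2, 16.8, 25.7 and 21.98 in CC4:2, 45.9, 46.1 and 45.1 in CC4:4 and 65.5, 18.7 and 24.2 in Control stumps and was not called against Control stumps. Adamts1, with group means of 85.1 to 120.0 CPM, Adamts8, of 0.923 to 2.13 CPM, and Adamts15, of 72.3 to 168 CPM, were not called in any of the 5 comparisons. Without Control replicate 1, Adamts1 was called in CC4:2 against Control stumps at 0.85 (edgeR adjusted p = 0.00032), where it was at 0.49 ± 0.21 with all stumps.

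The procollagen N-proteinases moved in opposite directions. Adamts2, which trims fibrillar procollagens, was at 129.9, 129 and 101.4 CPM in VP4:2, 162, 336 and 201 in CC4:2, 139, 149.9 and 179 in CC4:4 and 153, 90.96 and 99.2 in Control stumps, and changed by 1.02 ± 0.28 (SE, edgeR adjusted p = 0.013). Adamts3, which also processes the lymphatic growth factor VEGF-C, was at 1.86, 2.15 and 1.68 CPM in VP4:2, 3.28, 2.99 and 3.34 in CC4:2, 11.4, 12.5 and 8.69 in CC4:4 and 14.1, 6.79 and 20.7 in Control stumps. Both 4:2 groups were below every CC4:4 and Control stump, and VP4:2 stumps were below CC4:2 stumps. Adamts3 changed by -2.11 ± 0.34 (SE, edgeR adjusted p = 0.00086). Adamts14 was at 7.85 ± 1.25 CPM in VP4:2, 12.5 ± 4.55 in CC4:2, 17.2 ± 1.36 in CC4:4 and 14.99 ± 9.20 in Control stumps (mean and SD, n = 3 each) and was not called in any comparison.

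Of the other 9 ADAMTS genes, 2 rose and 2 fell in CC4:2 against Control stumps. This share of 44.4% was likewise close to the 43.5% of all tested genes. Adamts13, the von Willebrand factor protease, was at 18.7, 17.6 and 18.5 CPM in VP4:2, 9.16, 7.11 and 8.56 in CC4:2, 12.1, 9.35 and 10.5 in CC4:4 and 15.1, 26.2 and 13.2 in Control stumps. The CC4:2 stumps were below all others, and the change was -1.14 ± 0.24 (SE, edgeR adjusted p = 0.0035), or -1.25 without Control replicate 1 and -0.76 without Control replicate 2. Adamts6, which acts on fibrillin matrix, was at 9.76, 5.80 and 5.68 CPM in VP4:2, 2.65, 3.78 and 5.12 in CC4:2, 6.69, 9.35 and 8.34 in CC4:4 and 13.8, 6.09 and 10.7 in Control stumps, and changed by -1.40 ± 0.35 (SE, edgeR adjusted p = 0.009). Adamts17, also tied to fibrillin microfibrils, was at 12.4, 11.2 and 8.17 CPM in VP4:2, 18.4, 44.5 and 20.9 in CC4:2, 10.03, 7.05 and 21.9 in CC4:4 and 12.99, 4.53 and 1.13 in Control stumps, and changed by 2.15 ± 0.71 (SE, edgeR adjusted p = 0.03). Adamts19 was at 0.0548, 0.483 and 0.325 CPM in VP4:2, 0.741, 1.24 and 1.57 in CC4:2, 0.176, 0.136 and 0.479 in CC4:4 and 0.113, 0.469 and 0.0808 in Control stumps, near 1 CPM or below, and changed by 2.42 ± 0.79 (SE, edgeR adjusted p = 0.03). Adamts10, a fibrillin-binding relative of Adamts6, was at 33.98, 39.3 and 35.5 CPM in VP4:2, 47.01, 64.00 and 60.5 in CC4:2, 44.3, 39.5 and 42.7 in CC4:4 and 58.2, 55.1 and 49.6 in Control stumps, and Adamts16 was at 3.73, 8.43 and 6.06 CPM in VP4:2, 14.3, 20.4 and 17.4 in CC4:2, 22.3, 17.1 and 40.8 in CC4:4 and 26.4, 19.8 and 10.5 in Control stumps; neither was called against Control stumps. Adamts7, with group means of 31.0 to 67.8 CPM, Adamts12, of 82.1 to 150.4 CPM, and Adamts18, of 0.169 to 1.72 CPM, were not called in any of the 5 comparisons.

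The inhibitors also moved apart from each other. Timp1, the inducible TIMP of inflamed tissue, was at 122, 126 and 125 CPM in VP4:2, 77.3, 44.7 and 47.4 in CC4:2, 186, 333 and 283 in CC4:4 and 454, 119.9 and 133 in Control stumps. CC4:2 stumps were lowest with no overlap, and Control replicate 1 was more than 3-fold above the other Control stumps. Timp1 changed by -2.06 ± 0.47 (SE, edgeR adjusted p = 0.0057), or -1.16 without Control replicate 1 with an edgeR adjusted p of 0.0053. Timp3, the TIMP that stays bound to the matrix, was at 145, 188 and 153 CPM in VP4:2, 221, 256 and 194 in CC4:2, 106, 74.4 and 74.96 in CC4:4 and 81.1, 78.1 and 60.1 in Control stumps. Both 4:2 groups lay above all CC4:4 and Control stumps, with CC4:2 above VP4:2. Timp3 changed by 1.61 ± 0.19 (SE, edgeR adjusted p = 0.00018). Timp4 was at 11.3, 12.03 and 16.8 CPM in VP4:2, 19.8, 23.6 and 29.3 in CC4:2, 10.5, 2.17 and 7.39 in CC4:4 and 3.15, 4.37 and 2.83 in Control stumps, highest in CC4:2 stumps, and changed by 2.81 ± 0.46 (SE, edgeR adjusted p = 0.00093). Timp2 was at 548 ± 31.4 CPM in VP4:2, 669 ± 103 in CC4:2, 596 ± 124 in CC4:4 and 522 ± 295 in Control stumps (mean and SD, n = 3 each).

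Of the 23 calls in CC4:2 against Control stumps, 16 held in each of 6 fits that left out 1 library. Mmp17, Mmp25, Adamts2, Adamts5, Adamts9, Adamts17 and Adamts19 did not: without CC4:2 replicate 2 edgeR's adjusted p was 0.15 for Mmp17, 0.052 for Adamts2, 0.064 for Adamts5, 0.092 for Adamts9, 0.11 for Adamts17 and 0.063 for Adamts19, and without Control replicate 3 it was 0.093 for Mmp25. Without Control replicate 3 the values were 0.11 for Mmp17, 0.054 for Adamts5, 0.085 for Adamts9, 0.053 for Adamts17 and 0.099 for Adamts19, without Control replicate 2 they were 0.058 for Mmp25, 0.069 for Adamts9 and 0.081 for Adamts17, and without Control replicate 1 it was 0.082 for Adamts19. Without CC4:2 replicate 3 they were 0.051 for Mmp17, 0.073 for Mmp25, 0.083 for Adamts9 and 0.082 for Adamts19, and without CC4:2 replicate 1 it was 0.071 for Mmp25. Leaving out 1 library also added calls: Mmp7 (edgeR adjusted p = 0.018) and Adamts18 (0.045) without CC4:2 replicate 1, Mmp24 (0.028) without CC4:2 replicate 3, Adamts4 (0.032) without Control replicate 2, and Adamts1, Adamts18 (0.028), Mmp16, Mmp23 and Timp2 without Control replicate 1. Within the NovaSeq libraries alone, 2 per group, 12 members were called, 28.6% of the 42, where 20.4% of all genes passed: Mmp3, Mmp8, Mmp10, Mmp13, Mmp15, Mmp27, Mmp28, Adamts3, Adamts13, Timp1, Timp3 and Timp4.

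**Figure D3:**
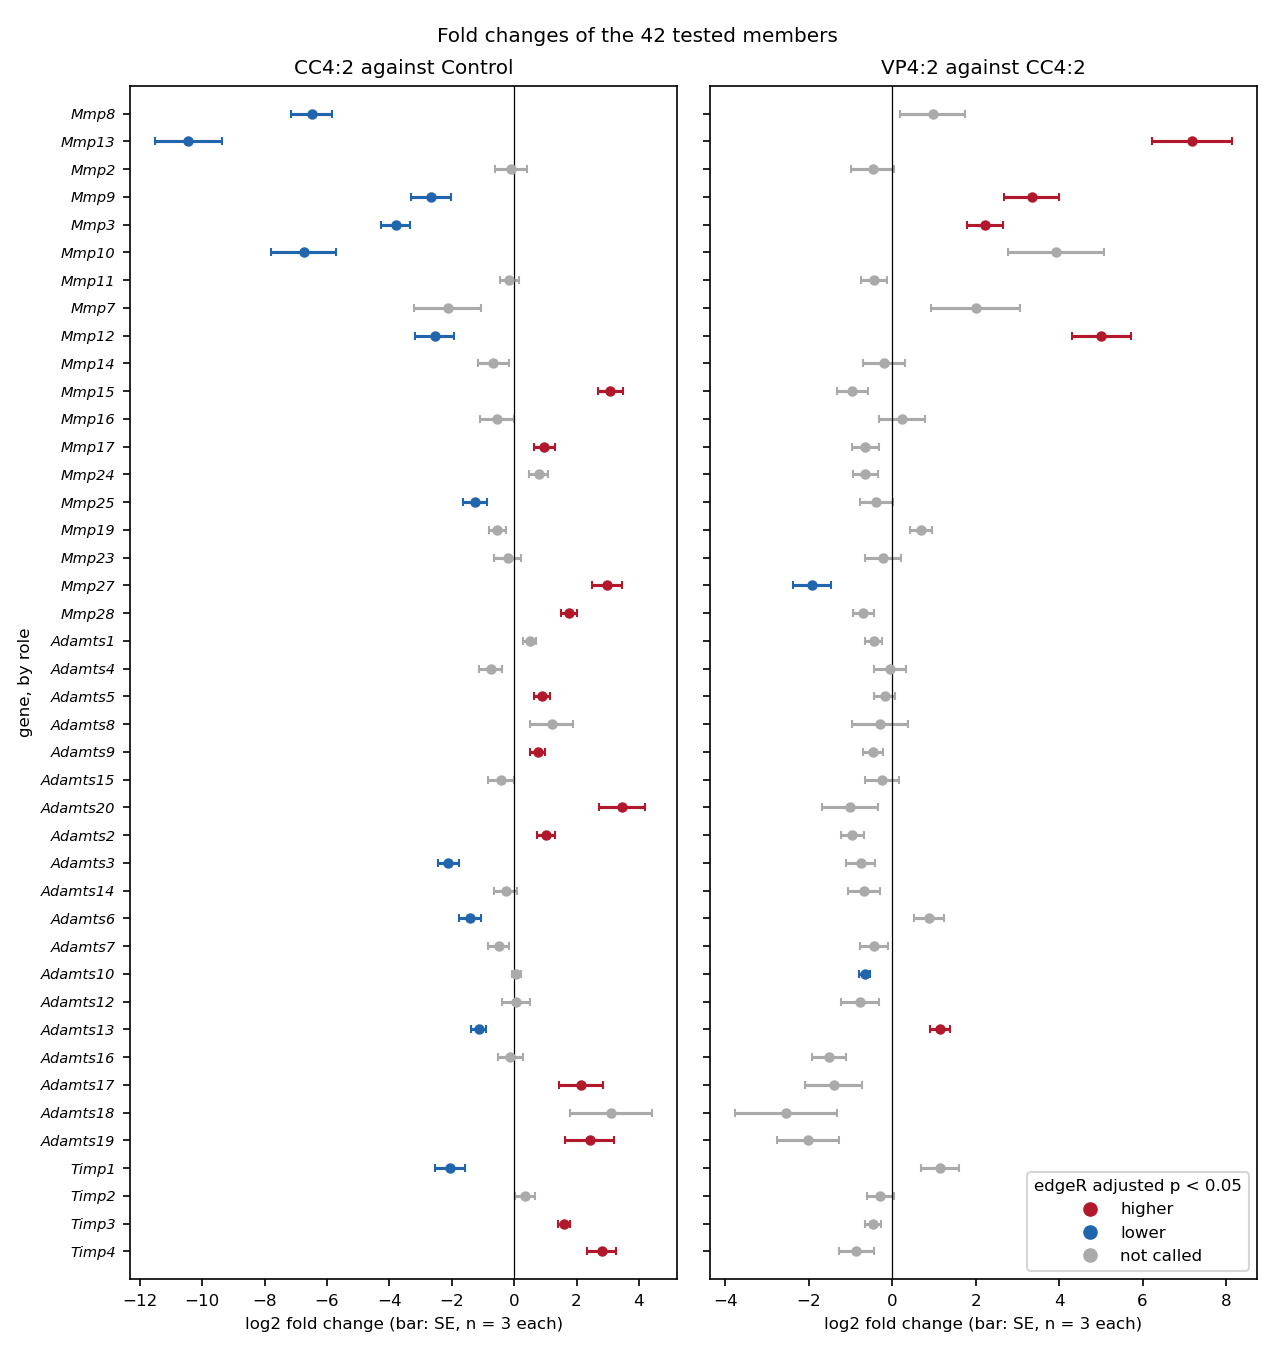
Log2 fold change of the 42 tested members with its standard error (bars, n = 3 each), for CC4:2 against Control stumps on the left and VP4:2 against CC4:2 stumps on the right, coloured by the edgeR call. In the left panel 12 genes are higher and 11 lower; in the right panel 5 are higher and 2 lower.

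The CC4:4 conduit gave no call among the members. In CC4:4 against Control stumps edgeR called 0 of 42 members and 0% of all genes; 830 genes and 3 members had an unadjusted p under 0.05. DESeq2 called 10 genes and 0 members, and limma-voom called 0. The members' median log2 fold change was 0.22, beside -0.01 over all genes. The 3 members whose stumps did not overlap were Adamts13 at -0.77 ± 0.24, Adamts10 at -0.36 ± 0.13 and Adamts9 at 0.60 ± 0.24 (log2 fold change and SE), each with an edgeR adjusted p of 0.93. The share of all genes without overlap was not counted, so these 3 are a description only. The 8 called members with the largest changes in CC4:2 against Control stumps were Mmp13, Mmp10, Mmp8, Mmp3, Adamts20, Mmp15, Mmp27 and Timp4. In CC4:4 against Control stumps their log2 differences lay between -0.78 ± 0.66 for Mmp10 and 0.96 ± 0.45 for Timp4, with Mmp13 at -0.39 ± 0.69, Mmp8 at 0.36 ± 0.46 and Mmp3 at 0.19 ± 0.41. Without Control replicate 1, 1.85% of genes and 3 members were called, with Adamts4 at 1.09 (edgeR adjusted p = 0.036), Mmp16 at 1.59 (0.025) and Mmp23 at 1.201 (0.034), and the differences of Mmp13, Mmp12 and Mmp9 turned to 1.199, 0.14 and 0.03. That of Mmp10 turned to 0.08.

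Setting the 4:2 gradient against the 4:4 gradient compares conduits with each other and leaves out the Control stumps. In CC4:2 against CC4:4 stumps 9 members rose and 11 fell, 47.6% of the 42, where 39.2% of all genes passed, 18.5% higher and 20.7% lower. The median was -0.41, beside 0.01 over all genes. Both comparisons of CC4:2 stumps use the same CC4:2 libraries, so the values are given side by side only. Mmp13 changed by -10.05 ± 1.06 (SE, edgeR adjusted p = 0.00014), Mmp8 by -6.86 ± 0.66, Mmp3 by -3.99 ± 0.47, Mmp9 by -2.10 ± 0.63 and Mmp12 by -1.83 ± 0.61. Mmp10 had 1 count in CC4:2 against 74 in CC4:4 stumps, where its level was 88.9-fold that of CC4:2 stumps (95% counting interval 15.5 to 3560). Mmp15 rose by 2.70 ± 0.40, Mmp27 by 2.74 ± 0.48, Mmp28 by 1.48 ± 0.26, Adamts20 by 3.33 ± 0.73, Timp3 by 1.40 ± 0.19 and Timp4 by 1.85 ± 0.44, while Adamts3 changed by -1.76 ± 0.34 and Timp1 by -2.24 ± 0.48.

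Some members were called against CC4:4 stumps and not against Control stumps. These were Mmp19 at -0.91 ± 0.26 (SE, edgeR adjusted p = 0.019), Adamts4 at -1.09 ± 0.38 (SE, edgeR adjusted p = 0.042), Mmp24 at 0.95 ± 0.30 (SE, edgeR adjusted p = 0.029) and Adamts10 at 0.44 ± 0.13 (SE, edgeR adjusted p = 0.023). Adamts6 at -1.08 ± 0.35 (SE, edgeR adjusted p = 0.033) and Adamts19 at 2.15 ± 0.77 (SE, edgeR adjusted p = 0.046) passed in both. Whether any of these changes differs between the comparisons was not tested. With 1 library left out 13 to 16 of the 20 were still called, and 14 to 16 members in all, where 26.5% to 33.8% of all genes passed. Adamts5 was added without CC4:2 replicate 1 (edgeR adjusted p = 0.031) and Mmp25 without CC4:2 replicate 2 (0.015). Adamts4 passed in 0 of 6 such fits, with edgeR adjusted p-values of 0.06 to 0.13. Other members lost the call in some of these fits, with an edgeR adjusted p of up to 0.072 for Mmp9 (without CC4:2 replicate 3), 0.11 for Mmp12 (without CC4:2 replicate 2 or 3), 0.066 for Mmp19 (without CC4:4 replicate 3), 0.11 for Mmp24 and Adamts6 (without CC4:2 replicate 1), 0.087 for Adamts10 and 0.15 for Adamts19 (without CC4:4 replicate 2). The NovaSeq libraries alone gave 10, or 23.8% of the members and 20.6% of all genes.

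Loading the 4:2 conduit with verteporfin went with higher Mmp13, Mmp12, Mmp9 and Mmp3. In VP4:2 against CC4:2 stumps 5 members rose and 2 fell, 16.7% of the 42, where 6.23% of all genes passed, 5.23% higher and 0.999% lower. The fold changes were 7.18 ± 0.96 (SE, edgeR adjusted p = 0.0015) for Mmp13, 5.01 ± 0.70 (SE, edgeR adjusted p = 0.0019) for Mmp12, 3.34 ± 0.66 (SE, edgeR adjusted p = 0.013) for Mmp9 and 2.23 ± 0.43 (SE, edgeR adjusted p = 0.012) for Mmp3. Mmp12 averaged 1133 ± 367 CPM in VP4:2 stumps and 35.1 ± 20.6 CPM in CC4:2 stumps (SD, n = 3 each), and no VP4:2 stump overlapped with a CC4:2 stump in any of these 4 genes. Adamts13 rose as well, by 1.14 ± 0.24 (SE, edgeR adjusted p = 0.017). Mmp27 and Adamts10 fell, with changes of -1.93 ± 0.45 (SE, edgeR adjusted p = 0.032) and -0.66 ± 0.13 (SE, edgeR adjusted p = 0.014). The members' median was -0.43, beside -0.03 over all genes, so that the few large rises stood beside differences below 0 in 30 of the 42.

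The other members did not pass in VP4:2 against CC4:2 stumps. Mmp8 was below 1 CPM in all 6, with a difference of 0.97 ± 0.78 (SE, edgeR adjusted p = 0.5) that was -0.38 without VP4:2 replicate 2. Mmp10 had 21 counts in VP4:2 against 1 in CC4:2 stumps, a 21.2-fold level with a 95% counting interval of 3.4 to 875, and edgeR's adjusted p was 0.072. Timp1 at 1.14 ± 0.46 (SE, edgeR adjusted p = 0.18), Timp3 at -0.47 ± 0.19 (SE, edgeR adjusted p = 0.18) and Timp4 at -0.86 ± 0.43 (SE, edgeR adjusted p = 0.26) were not called, and neither were Mmp15 at -0.95 ± 0.38 and Adamts16 at -1.51 ± 0.41, whose edgeR adjusted p was 0.057. Timp2, at -0.29 ± 0.33 (SE, edgeR adjusted p = 0.64), was not called either. VP4:2 stumps were apart from CC4:2 stumps in all 4 Timp genes and in Adamts16. This was not particular to them. The same held for Mmp10, Mmp19, Mmp28, Adamts1, Adamts2, Adamts3, Adamts6, Adamts14, Adamts17, Adamts19 and Adamts20, and for every called member. How many of all genes were apart in the same way was not counted, so this is a description only.

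With 1 of the 6 libraries left out, 3 to 8 members were called, where 2.92% to 4.67% of all genes passed. Without VP4:2 replicate 1 it was 4 members and 3.44% of all genes, and without CC4:2 replicate 2 it was 3 members and 3.43%. Mmp13, Mmp12 and Mmp3 were called in each of these 6 fits. Mmp9 missed without CC4:2 replicate 2 (edgeR adjusted p = 0.053). Mmp27 missed without VP4:2 replicate 1 (0.11), VP4:2 replicate 2 (0.1), CC4:2 replicate 2 (0.11) and CC4:2 replicate 3 (0.08). Adamts13 missed without VP4:2 replicate 1 (0.059), VP4:2 replicate 3 (0.064) and CC4:2 replicate 2 (0.074), and Adamts10 without VP4:2 replicates 1 (0.072) and 3 (0.071) and CC4:2 replicates 2 (0.053) and 3 (0.05). Adamts2 was added without CC4:2 replicate 1 (0.046). Within the NovaSeq libraries 0 members and 1.28% of all genes were called, with a log2 fold change of 7.47 for Mmp13 (edgeR adjusted p = 0.059), 4.54 for Mmp12 (0.088), 2.35 for Mmp9 (0.23) and 2.18 for Mmp3 (0.17). Whether the replicate numbers pair these 2 groups is not settled. A fit of their 6 samples with the replicate as a block, chosen after the data were seen, called 13 of the 39 members it tested and 12.8% of all genes. The same 6 samples without the block called 8 members and 7.72% of all genes. Beside the fit of all 12 libraries, the fit of the 6 samples with the block added Timp1 at 1.19 (0.02), Timp4 at -0.85 (0.015), Mmp15 at -0.95 (0.013), Adamts16 at -1.56 (0.0097), Adamts20 at -1.001 (0.031) and Adamts17 at -1.30 (0.045). The same block in the fit of all 12 libraries called 7 members and 5.43% of all genes.

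Macrophage, giant cell and lymphocyte markers moved with these proteases as well. In VP4:2 against CC4:2 stumps 7 of 11 macrophage markers and 4 of 5 giant cell markers rose, while 0 of 8 neutrophil, 0 of 8 myelin and 0 of 8 pan-Schwann markers were called. Of the T and NK cell markers 3 of 7 rose (Cd3e, Cd3g and Cd8a), and of the B and plasma cell markers 1 of 6 (Mzb1), with all 13 above 0 in log2 fold change. The giant cell markers that rose were Dcstamp by 4.80, Ocstamp by 4.66, Atp6v0d2 by 4.07 and Ctsk by 2.16 on the log2 scale. Their part in the rise of Mmp12, Mmp9, Mmp13 and Mmp3 was not tested.

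**Figure D4:**
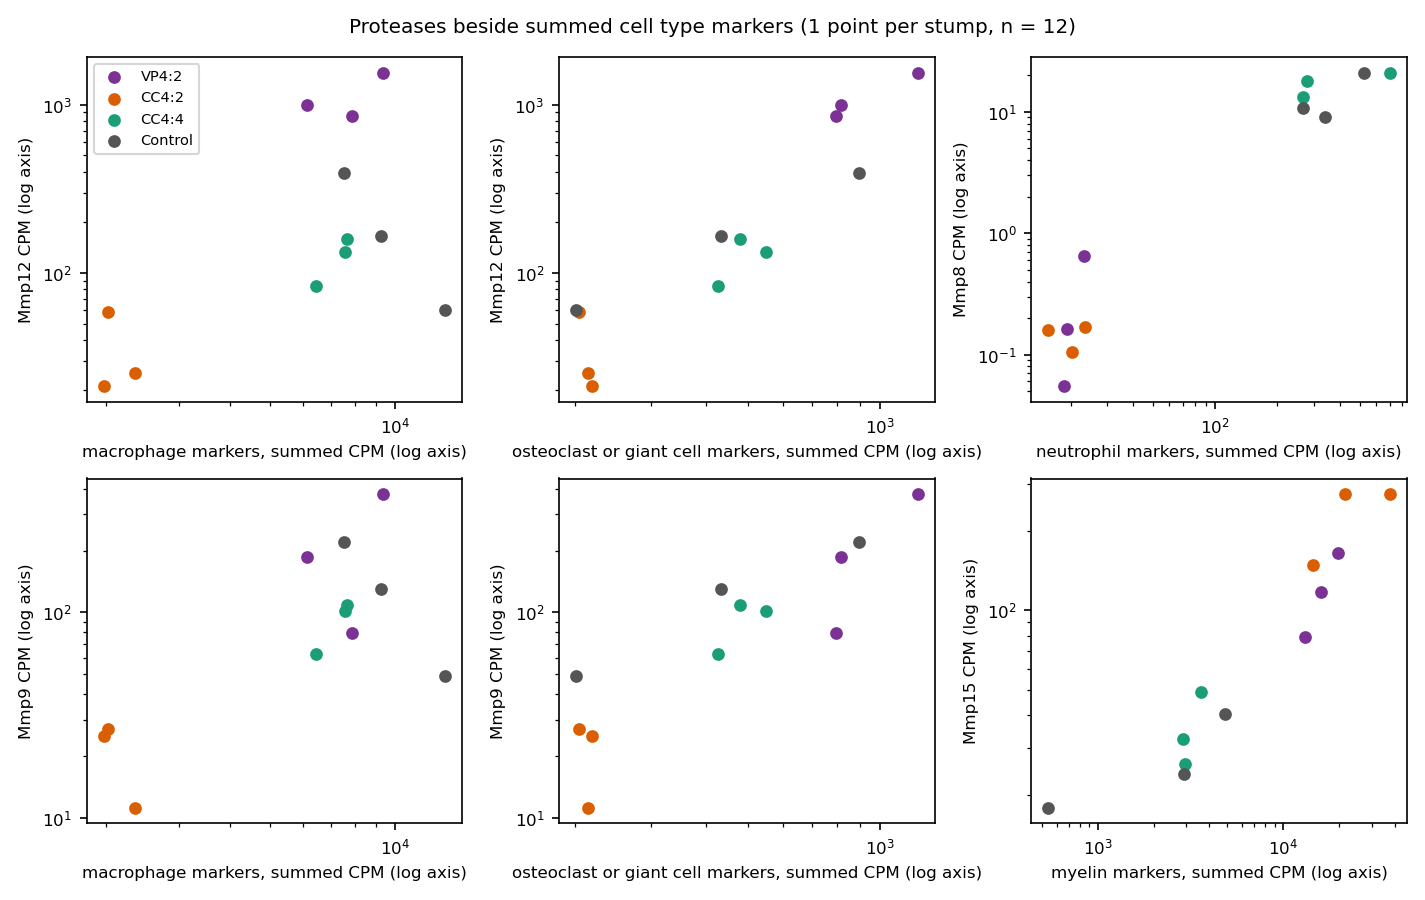
CPM of Mmp12, Mmp9, Mmp8 and Mmp15 (y axes) against the summed CPM of a marker list (x axes), both on log axes, with 1 point per stump (n = 12) coloured by group. VP4:2 stumps have the highest Mmp12 beside macrophage sums of 6147 to 9373 CPM that are within or just below the range of the CC4:4 and Control stumps, and Mmp8 is low in every stump with a low neutrophil sum.

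Against Control stumps, VP4:2 stumps had lower Mmp8, Mmp13, Mmp3 and Mmp10 and higher Mmp12. In VP4:2 against Control stumps 6 members rose and 8 fell, 33.3% of the 42, where 18.9% of all genes passed, 9.3% higher and 9.57% lower. The median was -0.06, beside -0.04 over all genes; without Control replicate 1 it was 0.28, with 16 members called and 26.9% of all genes. Mmp8 changed by -5.53 ± 0.61 (SE, edgeR adjusted p = 0.0011), Mmp13 by -3.26 ± 0.75, Mmp3 by -1.57 ± 0.42, Mmp10 by -2.83 ± 0.73, Mmp25 by -1.64 ± 0.40 and Adamts3 by -2.86 ± 0.36. Mmp12 rose by 2.46 ± 0.62 (SE, edgeR adjusted p = 0.022), and Mmp15 by 2.14 ± 0.39, Mmp28 by 1.06 ± 0.26, Adamts20 by 2.45 ± 0.72, Timp3 by 1.15 ± 0.19 and Timp4 by 1.95 ± 0.45. Adamts16 and Adamts10 fell, with changes of -1.64 ± 0.42 (SE, edgeR adjusted p = 0.023) and -0.58 ± 0.13 (SE, edgeR adjusted p = 0.015).

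Mmp9 and Timp1 were not called in VP4:2 against Control stumps, at 0.68 ± 0.60 (SE, edgeR adjusted p = 0.45) and -0.92 ± 0.46 (SE, edgeR adjusted p = 0.18), and their stumps overlapped. With 1 library left out the change of Timp1 ranged from -1.21 to -0.02. Mmp27, at 1.05 ± 0.49 (SE, edgeR adjusted p = 0.15), and Adamts13, at 0.01 ± 0.23, were not called either. Mmp8, Mmp15, Adamts3 and Timp3 were called in each of 6 fits that left out 1 library, and the other 10 missed in at least 1 of them, with edgeR adjusted p-values up to 0.12. Without Control replicate 1 the change of Mmp3 was -1.24 (edgeR adjusted p = 0.058) and that of Mmp10 -1.97 (0.059), and that of Mmp13 was -1.68 and still called. Without VP4:2 replicate 3, 5 members and 10.1% of all genes were called, and without VP4:2 replicate 1, 6 members and 7.63%. Without Control replicate 3 it was 7 members and 7.32%, and without VP4:2 replicate 2 it was 9 members and 7.69%. Without Control replicate 1, calls were added for Mmp16 at 1.03 (edgeR adjusted p = 0.013), Adamts5 at 0.99 (0.02), Timp2 at 0.64 (0.041) and Adamts1 at 0.40 (0.022), and without Control replicate 2 for Adamts7 (0.045); with all stumps Mmp16 was at -0.32 ± 0.55. The NovaSeq libraries alone called 0 members and 0.12% of all genes, and the 6 samples fitted alone called 9 of 40 members and 12.4% of all genes.

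**Figure D5:**
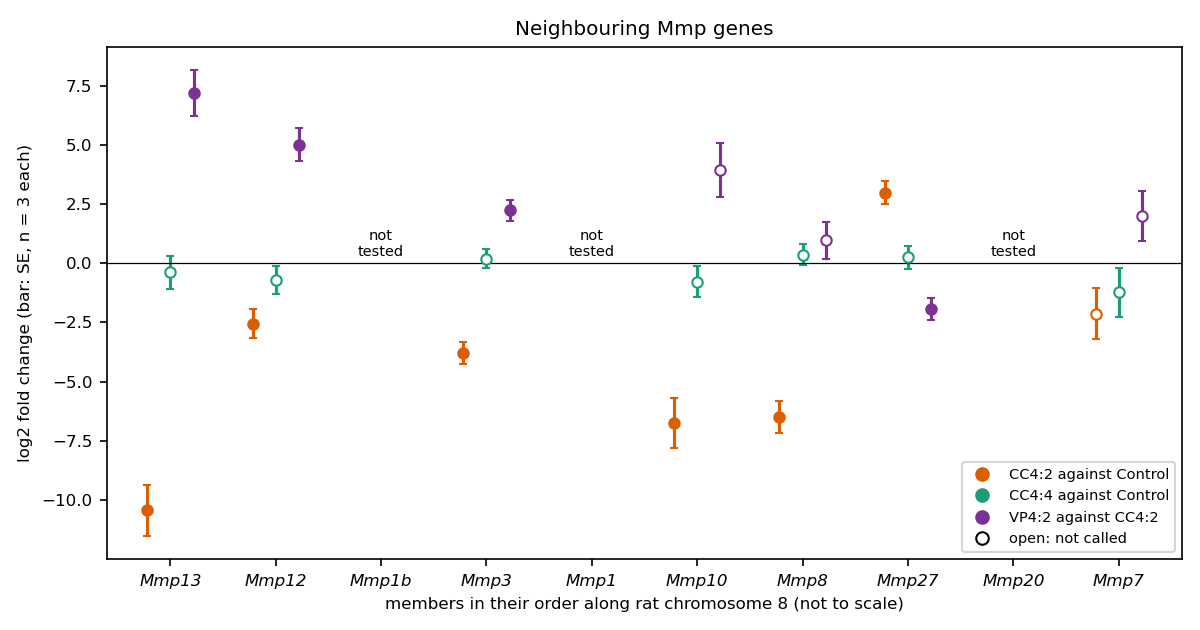
Log2 fold change (y axis, bars are SE, n = 3 each) of the 10 neighbouring Mmp genes in their order along rat chromosome 8 (x axis, not to scale), in CC4:2 against Control, CC4:4 against Control and VP4:2 against CC4:2 stumps; open symbols were not called. Mmp13, Mmp12, Mmp3, Mmp10 and Mmp8 are lower and Mmp27 is higher in CC4:2 against Control stumps.

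Along the chromosome 8 row, 7 of the 10 genes were tested. In CC4:2 against Control stumps Mmp13, Mmp12, Mmp3, Mmp10 and Mmp8 fell, Mmp27 rose and Mmp7 was not called. In VP4:2 against CC4:2 stumps Mmp13, Mmp12 and Mmp3 rose and Mmp27 fell. Of the members that fell in CC4:2 against Control stumps and had a promoter window, 4 of 10 held the AP-1 letters printed above (Mmp13, Mmp12, Mmp3 and Mmp10). Of those that rose, 0 of 9 did. Mmp9, which fell, and Mmp17, Adamts5 and Adamts19, which rose, had no window. Mmp8, without those letters, fell like its neighbours in CC4:2 stumps, and against CC4:2 stumps it was not called in VP4:2 stumps. The 2 gene groups were set by position and direction after earlier results of these data were known, and the shares are a description.

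Other genes of matrix breakdown were counted by list. In CC4:2 against Control stumps 43.5% of all tested genes were called, 20.3% higher and 23.2% lower. Of 13 tested genes of the plasminogen system and the proprotein convertases, which activate MMPs, 2 rose and 2 fell in CC4:2 against Control stumps. Plaur, the urokinase receptor, averaged 7.70 ± 1.88 CPM in CC4:2 and 54.8 ± 19.7 CPM in Control stumps (SD, n = 3 each), a change of -2.83 ± 0.31 (SE, edgeR adjusted p = 0.00011), and in VP4:2 against CC4:2 stumps it rose by 1.32 ± 0.30 (SE, edgeR adjusted p = 0.025). Tll1, a tolloid that processes procollagen, changed by 1.62 ± 0.16 (SE, edgeR adjusted p = 6.2e-05), and Pcsk6, a convertase, by 2.12 ± 0.38 (SE, edgeR adjusted p = 0.0016). The list's median was -0.10, and 0.60 without Control replicate 1, when 5 rose and 2 fell. In the list of inhibitors and clearance genes, 5 of 8 tested rose and 2 fell, with a median of 0.74. The list is mixed and holds Bsg and Pcolce, so its count does not speak of inhibitors alone. A2m was among those that fell, with a mean of 42.8 CPM in CC4:2, 218 in Control and 298 in VP4:2 stumps. Reck, a membrane-anchored MMP inhibitor, averaged 152 ± 21.1 CPM in CC4:2 and 37.8 ± 11.7 CPM in Control stumps and changed by 2.00 ± 0.23 (SE, edgeR adjusted p = 0.00014). Spock2, a testican, changed by 2.87 ± 0.37 (SE, edgeR adjusted p = 0.00026), and Tfpi2, a serine protease inhibitor of the matrix, by -2.87 ± 0.50 (SE, edgeR adjusted p = 0.0013).

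Of 10 tested ADAM genes, 4 rose and 2 fell in CC4:2 against Control stumps, with a median of 0.20. That is 60%, where 43.5% of all tested genes were called. Without Control replicate 1, 5 rose and 1 fell, with a median of 0.43. Adam8, a sheddase of myeloid cells, changed by -2.97 ± 0.23 (SE, edgeR adjusted p = 2.1e-05), and rose by 2.01 ± 0.22 (SE, edgeR adjusted p = 0.00049) in VP4:2 against CC4:2 stumps. Adam22 and Adam23, non-catalytic receptors for LGI proteins at axons, changed by 2.17 ± 0.51 (SE, edgeR adjusted p = 0.0061) and 1.77 ± 0.24 (SE, edgeR adjusted p = 0.00036). All 7 ADAMTS-like genes, which resemble ADAMTS without a protease domain, rose in CC4:2 against Control stumps, with a median of 1.96. Papln changed by 3.03 ± 0.41 (SE, edgeR adjusted p = 0.00035), Adamtsl2 by 2.21 ± 0.33 (SE, edgeR adjusted p = 0.00051) and Adamtsl4 by 1.71 ± 0.25 (SE, edgeR adjusted p = 0.00053), and in VP4:2 against CC4:2 stumps Adamtsl4 alone of the 7 was called, at -1.06 ± 0.25 (SE, edgeR adjusted p = 0.032). Of 5 tested lectican, link protein and proteoglycan substrate genes, Cspg4 changed by 2.31 ± 0.28 (SE, edgeR adjusted p = 0.00019) and Vcan, the versican that several ADAMTS enzymes cut, by -1.09 ± 0.28 (SE, edgeR adjusted p = 0.01); Cspg5 at 0.66 ± 0.34 (SE, edgeR adjusted p = 0.14) was not called. The same lists had 0 calls in CC4:4 against Control stumps. Without Control replicate 1 there was 1 higher plasminogen or convertase gene and 1 higher gene of the inhibitor and clearance list.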

How the data were processed

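Poly(A) mRNA from 12 rat sciatic nerve stumps, 3 per group, was sequenced as stranded paired-end libraries, per the labels' protocols. The authors deposited estimated gene counts (expected counts, not normalized); the submitters' processing notes name HISAT2, StringTie, RSEM and DESeq2 without versions or roles. No source used here gives the genome build or annotation. The same table stands under all 12 samples and was read once, with its columns matched to samples by their labels.

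Counts were rounded to whole numbers, filtered with filterByExpr, scaled by TMM and fitted with edgeR 4.0.16 (R 4.3.3) quasi-likelihood tests over all 12 libraries with 4 group terms and 8 residual degrees of freedom. Benjamini-Hochberg adjustment ran over all 15712 genes tested, and a gene was called at an adjusted p under 0.05. CPM are counts scaled to the TMM-adjusted library total. The interval on a ratio of few counts is exact at 95% and, with no molecular identifiers, covers counting error only. Alternatives were RLE scaling, no count filter, a platform term, a replicate block, NovaSeq libraries alone, the 6 samples compared alone, DESeq2 1.42.0, limma-voom (limma 3.58.1) and leaving out each library.

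Replicate numbers were checked by correlating deviations from group means: same-numbered VP4:2 and CC4:2 stumps correlated at 0.119 to 0.433, above 0.1 in every pair. No other comparison met that. Differently numbered VP4:2 and CC4:2 stumps correlated at -0.419 to 0.183. VP4:2 replicate 1 correlated more with CC4:2 replicate 2 (0.183) than with CC4:2 replicate 1 (0.119). The highest value, 0.433, was between the DNBSEQ-T7 libraries, replicate 3 of each group. Whether the numbers pair these stumps is therefore not settled, and the labels do not state it. The members and all gene lists were chosen with earlier results of these data known. Per-sample values were given for members tested, called in at least 1 of 5 comparisons and at a mean of 1 CPM or more in a group; other lists name up to 3 genes of smallest p in CC4:2 against Control stumps at that level, and other genes named there were chosen after their values were seen. Promoters printed are the 5 largest changes with a RefSeq window. Protein sequences were not used here.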

Additional observations from a re-analysis of the deposited data

How the results depend on the processing

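Member counts moved most when libraries were left out. With 1 library left out, CC4:2 against Control stumps gave 17 to 27 calls (23 with all libraries), CC4:4 against Control 0 to 3 (0), CC4:2 against CC4:4 14 to 16 (20), VP4:2 against CC4:2 3 to 8 (7) and VP4:2 against Control 5 to 16 (14). All genes called ranged with them from 5244 to 7233 (6835), 0 to 295 (0), 4218 to 5392 (6156), 466 to 746 (979) and 1166 to 4294 (2964). The NovaSeq libraries alone gave 12 member calls in CC4:2 against Control, 10 in CC4:2 against CC4:4, 0 in VP4:2 against CC4:2 and 0 in VP4:2 against Control, where 3220, 3253, 202 and 19 of all genes were called. The 6 samples of VP4:2 against Control fitted alone gave 9. With the replicate block in the fit of all libraries the calls were 22, 0, 19, 7 and 14. With the replicate block in the fit of the 6 VP4:2 and CC4:2 samples alone, whose pairing is not settled, they were 13. RLE scaling, no filter, a platform term, DESeq2 and limma-voom kept every member count within 1.5 times.

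No called member changed sign in any alternative; 12 of 23 in CC4:2 against Control and 9 of 20 in CC4:2 against CC4:4 were called in all of them, and 0 of 7 and 0 of 14 in the VP4:2 comparisons. Every sign change was of a member not called with all libraries, in any alternative for 11 of the 42 in CC4:2 against Control, 20 in CC4:4 against Control, 3 in CC4:2 against CC4:4, 6 in VP4:2 against CC4:2 and 14 in VP4:2 against Control. Without Control replicate 1, Mmp16 (0.81, range with 1 library left out -0.90 to 0.81) and Mmp23 (0.72, range -0.49 to 0.72) in CC4:2 against Control and Mmp16 (1.03, range -0.67 to 1.03) in VP4:2 against Control changed sign and were then called; with limma-voom Mmp23 was 0.034 and Mmp16 in VP4:2 against Control 0.015. Other sign changes of members with a fold change above follow. In CC4:2 against Control they were Mmp2 (0.86 without Control replicate 1, 0.19 without CC4:2 replicate 1 and 0.15 with limma-voom; range with 1 library left out -0.44 to 0.86) and Mmp14 (0.14 without Control replicate 1; range -1.14 to 0.14). In CC4:4 against Control, Mmp13 was 0.44 with limma-voom and 1.199 without Control replicate 1 (range -0.86 to 1.199), Mmp10 was 0.079 (range -1.15 to 0.079), Mmp9 was 0.026 (range -0.92 to 0.026) and Mmp12 was 0.14 (range -1.13 to 0.14) without it, and Timp1 was -0.10 in the NovaSeq libraries, -0.10 without Control replicate 2 and -0.07 without Control replicate 3 (range -0.10 to 1.08). Mmp16 in CC4:4 against Control, 0.23 with all libraries, was -0.215 in the NovaSeq libraries. It was -0.097 without Control replicate 2 and -0.12 without Control replicate 3. Mmp23 in CC4:4 against Control, 0.27 with all libraries, was -0.22 in the NovaSeq libraries and -0.0098 without Control replicate 3. Mmp8 in VP4:2 against CC4:2 was -0.38 without VP4:2 replicate 2 (range -0.38 to 1.45), and Mmp9 in VP4:2 against Control was -0.0027 without VP4:2 replicate 3 (range -0.0027 to 1.26). In the same comparison Adamts13, at 0.0076 with all libraries, was -0.0022 with RLE scaling, -0.0013 with DESeq2, -0.020 in the 6 samples alone and -0.17 in the NovaSeq libraries (range -0.16 to 0.39), Adamts1 was -0.012 in the NovaSeq libraries (range -0.073 to 0.40) and Timp2 was -0.12 there (range -0.16 to 0.64). The cause of these shifts was not tested, beyond the fewer samples in such fits. Members under 1 CPM in a group, among them Mmp8, Mmp10, Mmp13, Adamts18 and Adamts19, rest on few counts there, and platform is 1 library per group for DNBSEQ-T7.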
